A study of Mus musculus with 10 samples.

Results

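The miR-17~92 and miR-106b~25 clusters are a pair of closely related polycistronic miRNA genes, and their hairpins were followed in mouse sperm after a paternal high-fat diet. Their 9 hairpins were taken by name from the miRBase entries of the tables: mmu-mir-17, mmu-mir-18a, mmu-mir-19a, mmu-mir-20a, mmu-mir-19b-1 and mmu-mir-92a-1 for miR-17~92, and mmu-mir-106b, mmu-mir-93 and mmu-mir-25 for miR-106b~25. They were 9 of the 1136 miRNA hairpins with a read in at least 1 sample, and all 9 had reads in all 10 samples. C57BL/6J males were put at 4 weeks of age on a control diet with 10% of its energy from fat (CD-F0) or on a high-fat diet with 42% (HFD-F0), and small RNA of mature sperm from the tail of the epididymis and the vas deferens was sequenced after 10 weeks of diet. Each group held 5 samples, and the comparison asked which sperm small RNAs differed with the father's diet. The sources do not state whether each sample was 1 mouse, so the p-values measure the spread between these samples, which may be technical in part.

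A cluster of this kind is transcribed as a single precursor, from which Drosha and Dicer release each hairpin and then its mature miRNA, and the seed near the 5′ end of the mature strand selects the messenger RNAs that are repressed. The miR-17 seed family (miR-17, miR-20a, miR-106b and miR-93) is known to restrain cell cycle regulators such as E2f1 and Cdkn1a, and the miR-92a and miR-25 family represses the pro-apoptotic gene Bcl2l11. miR-17~92 is known as an oncogenic cluster and is active in dividing germ cells, and sperm miR-19b has been studied as a candidate carrier of paternal diet.

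In the GRCm38.p6 assembly (mm10) the 6 hairpins of miR-17~92 lay within 836 bases at chr14:115043671-115044506 on the plus strand. The annotation (GENCODE M21) placed them in exon 2 of the 2 exons of the Mir17hg transcript, a long non-coding RNA. The 3 hairpins of miR-106b~25 lay within 498 bases at chr5:138165321-138165818 on the minus strand, in intron 13 of the 15-exon transcript of the protein-coding gene Mcm7, whose product is a subunit of the replicative helicase. mir-93 and mir-25 also fell in exon 1 of a shorter Mcm7 transcript with 2 exons. The third cluster of the family, miR-106a-363, lay at chrX:52741693-52742567 on the minus strand, and its 6 hairpins were used for comparison.

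The mature sequences below (RefSeq, GRCm38.p6, all 15 hairpins of the 3 clusters matched) are shown because the members fall into 4 groups by seed and because some of them are nearly or wholly identical, which decides how reads can be assigned. Each is written 5′ to 3′ with the seed, bases 2 to 8, in capitals. The first 4 carry the seed of miR-17, the next carries the seed of miR-18a, the next pair carries the seed of miR-19, and the last pair carries the seed of miR-92a.
miR-17-5p: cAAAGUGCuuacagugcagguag
miR-20a-5p: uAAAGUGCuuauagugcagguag
miR-106b-5p: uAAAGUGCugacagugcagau
miR-93-5p: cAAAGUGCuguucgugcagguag
miR-18a-5p: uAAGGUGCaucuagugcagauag
miR-19a-3p: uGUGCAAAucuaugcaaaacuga
miR-19b-3p: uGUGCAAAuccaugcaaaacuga
miR-92a-3p: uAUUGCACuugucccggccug
miR-25-3p: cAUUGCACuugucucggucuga

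Substitutions are numbered along the miRNA named first, its 5′ base being position 1. miR-19a differed from miR-19b by 1 substitution, U11C. miR-17 differed from miR-20a by C1U and C12U, and from miR-106a of the X-linked cluster by U10A alone. miR-18a differed from its X-linked counterpart miR-18b by A18U and A20U. miR-19b is made from both mir-19b-1 and the X-linked mir-19b-2, and miR-92a from both mir-92a-1 and the X-linked mir-92a-2. The deposited values held fractions of a read for 7 of the 9 members (in 4 to 8 of the 10 samples), and for mir-93 and mir-106b in none. The tables give reads per hairpin and do not separate the arms, so the mature strand behind a value was not identified here.

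Each library held 29558751 to 32178088 clean reads. miRNA reads made up 15.4% to 18.2% of them in CD-F0 and 14.5% to 23.5% in HFD-F0, with HFD-F0 replicate 1 the highest of all. The miRNAs that mark male germ cells were present: mir-34b, mir-34c, mir-449a, mir-449b and mir-449c together reached 10478 to 12648 reads per 1000000 clean reads (RPM) in CD-F0 and 7275 to 15064 RPM in HFD-F0. Of these, mir-449b held only 1.18 to 3.14 RPM and mir-449c 0.823 to 3.21 RPM over all samples. Lists for other cells were present as well, and none of the 23 marker hairpins was at 0 in any sample, though mir-144 held only 0.870 to 5.71 RPM. The smooth muscle list held mir-143, the most abundant hairpin of the data, with mir-145a, mir-1a-1, mir-1a-2, mir-133a-1 and mir-133a-2. It summed to 21352 to 29447 RPM in CD-F0 and 15876 to 36525 RPM in HFD-F0. The epididymal epithelium list summed to 3969 to 6756 RPM and 5520 to 9463 RPM, and the blood and immune cell list to 1557 to 2564 RPM and 1461 to 3117 RPM. The part of these other cells in the values below was not tested, and in such bulk samples fewer cells of a type and less RNA per cell cannot be told apart.

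The members of each cluster differed widely in level although they share a precursor. Averaged over the 10 samples, mir-93 stood at 1706 RPM and mir-25 at 1066 RPM, which ranked 27 and 43 among the 1136 hairpins. Their cluster partner mir-106b stood at 15.4 RPM (rank 259). In miR-17~92, mir-92a-1 led with 720.0 RPM (rank 62). mir-18a, mir-19b-1 and mir-20a followed at 118, 113 and 110.2 RPM, mir-19a had 81.7 RPM, and mir-17 was last with 13.1 RPM (rank 273). Mature lengths ran from 21 to 23 bases for these miRNAs, so the RPM values were not divided by length.

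**Figure D1:**
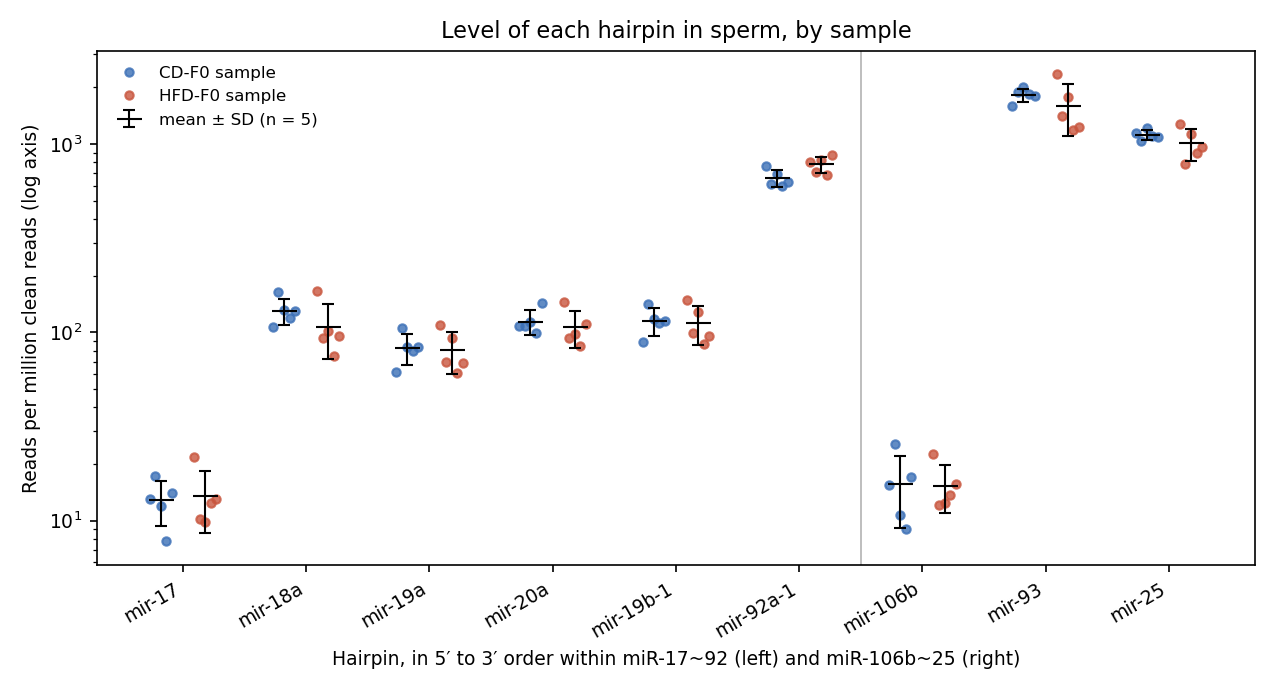
Level of the 9 hairpins in RPM (log axis) in each CD-F0 and HFD-F0 sample, with hairpins in 5′ to 3′ order within their cluster. Points are samples, and bars give the mean and SD of 5 samples; mir-17 and mir-106b sit at 7.76 to 25.6 RPM in every sample while mir-93 does not fall under 1181 RPM.

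The order of the levels held in every sample for 5 of the 7 pairs of neighbours. mir-92a-1 exceeded mir-18a in 10 of 10 samples by a median of 6.15-fold (range 3.77 to 9.14), and mir-19a exceeded mir-17 in 10 of 10 samples by 6.03-fold (4.73 to 10.2). mir-20a was above mir-19a in all 10 samples by a median of only 1.34-fold (1.02 to 1.75). In miR-106b~25, mir-93 exceeded mir-25 by a median of 1.64-fold (1.28 to 1.83) and mir-25 exceeded mir-106b by 64.9-fold (40.8 to 121), each in 10 of 10 samples. For these 5 pairs an exact sign-flip permutation test over the 10 samples gave p = 0.00195, the smallest value that 1024 sign flips allow (two-sided, 7 neighbouring pairs tested, not adjusted). Neighbours were hairpins adjacent in mean RPM over these same 10 samples. The p-values therefore describe how steadily the order held and are no independent test of it. mir-18a, mir-19b-1 and mir-20a could not be ordered. mir-18a was above mir-19b-1 in 6 of 10 samples (exact p = 0.500) and mir-19b-1 was above mir-20a in 7 of 10 (exact p = 0.641).

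From the top to the bottom of a cluster, mir-92a-1 exceeded mir-17 by a median of 58.3-fold (35.9 to 83.7) and mir-93 exceeded mir-106b by 105-fold (73.5 to 204). The hairpin nearest the 5′ end was the lowest in both clusters. The 3′ hairpin was the highest in miR-17~92, whereas the middle hairpin was the highest in miR-106b~25. Grouped by seed, the members with the miR-17 seed and those with the miR-92a seed carried most of the reads. In CD-F0, the 4 hairpins with the miR-17 seed summed to 1965 ± 150 RPM (SD, n = 5), and mir-93 held most of that sum. mir-92a-1 and mir-25 together summed to 1779.9 ± 122 RPM, and mir-19a and mir-19b-1 to 198 ± 34.5 RPM.

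**Figure D2:**
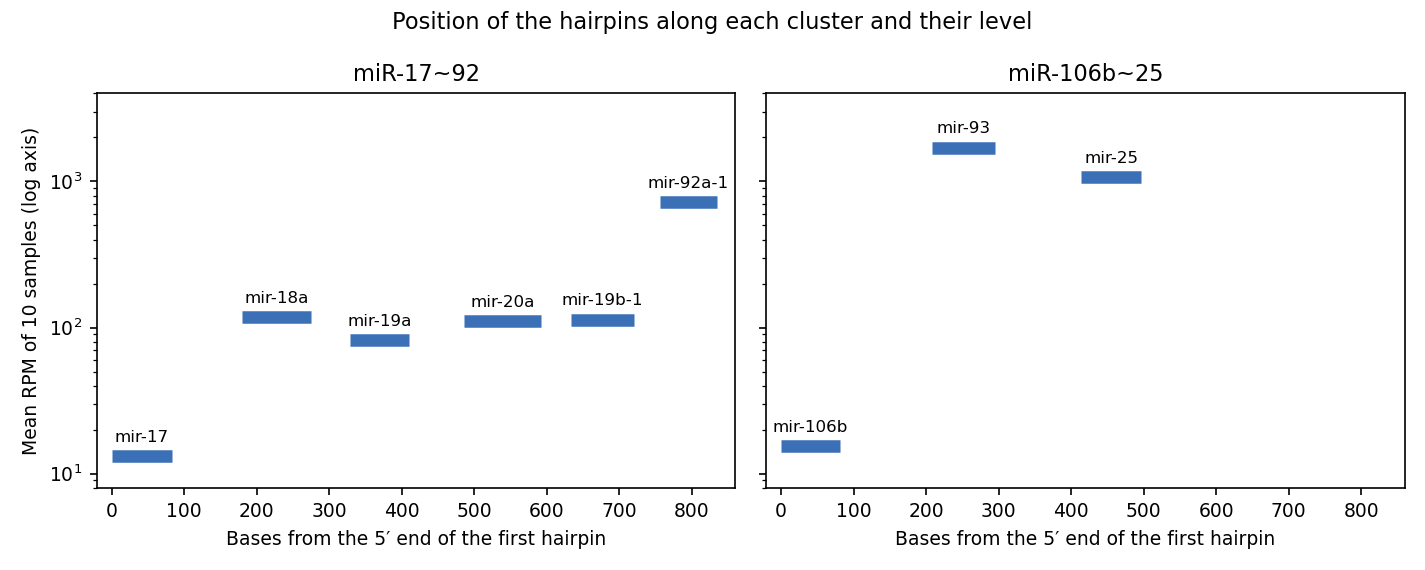
Position of each hairpin in bases from the 5′ end of the first hairpin of its cluster (horizontal axis, to scale) against its mean level over the 10 samples in RPM (vertical log axis). Each bar spans 1 hairpin; the 5′-most hairpins, mir-17 at 13.1 RPM and mir-106b at 15.4 RPM, are the lowest of their clusters.

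The level printed for a hairpin with a shared mature miRNA depends on how its reads were divided. mir-19b-1 and mir-19b-2 were near copies of each other in value, with a ratio of 0.979 to 0.994 over the 10 samples and a difference (mir-19b-1 minus mir-19b-2) of -88 to -29 reads. mir-92a-1 exceeded mir-92a-2 by 1.30 to 1.36-fold, or 4539 to 7015 reads. When the reads of each pair were added together, miR-19b stood above both mir-18a and mir-20a in the order (exact sign-flip p = 0.00195 for each). Adding near copies fixed this order beforehand, so these p-values give no evidence on it. The levels of mir-19b-1 and mir-92a-1 are therefore those of the deposited division and uncertain as levels of their own loci.

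No member differed between the diets by the thresholds of the study, an unadjusted p of at most 0.05 with an absolute log2 fold change of at least 1. In edgeR's quasi-likelihood test 0 of 9 members passed, against 3.69% of the 814 features tested (30 features) and 2.84% of the 529 miRNA hairpins tested (15 hairpins). At an unadjusted p of at most 0.05 alone, 1 of 9 members was lower in HFD-F0 (mir-18a) and 0 were higher. Over all features the corresponding shares were 4.05% lower and 6.14% higher, and over miRNA hairpins 4.73% and 4.91%. After Benjamini-Hochberg adjustment over all 814 features by the same edgeR test, 0 of 9 members had an adjusted p under 0.05, against 0.123% of all features (1 feature) and 0% of miRNA hairpins. At an unadjusted p of at most 0.05, DESeq2 gave 1 member and 98 of all 814 features, and edgeR's exact test gave 0 members and 95 features. After adjustment DESeq2 gave 0 members and 13 features, and the exact test 0 members and 12 features. The RPM of the groups overlapped for all 9 members, where 3.93% of all features and 3.21% of miRNA hairpins did not overlap.

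The direction of the fitted differences was uneven. The log2 fold change of HFD-F0 against CD-F0, computed after TMM normalization across all small RNAs, was under 0 for 8 of 9 members, with a median of -0.15. Of all features 51% were under 0 (median -0.01), and of miRNA hairpins 55.4% (median -0.05). This count was 7 of 9 when the libraries were scaled by clean reads alone, which moved the median of all features to 0.09 and that of the members to -0.04. It was 7 of 9 among miRNA hairpins alone, and 6 of 9 without CD-F0 replicate 2.

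**Figure D3:**
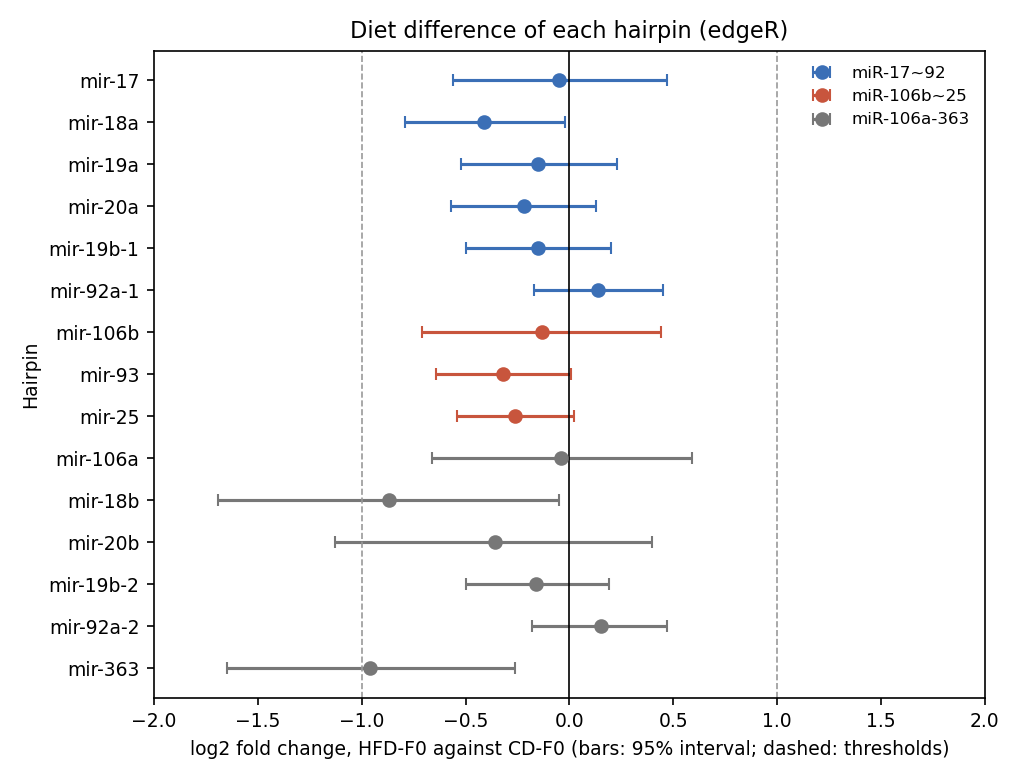
Fitted log2 fold change of HFD-F0 against CD-F0 (horizontal axis; points with bars for the 95% interval, 5 samples per group) for the hairpins of miR-17~92, miR-106b~25 and miR-106a-363. Dashed lines mark the fold change threshold of 1 in each direction; of the 9 members only mir-18a has an interval that stays clear of 0, ending at -0.02.

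Among the members with the miR-17 seed, mir-93 was the most abundant. In replicates 1 to 5 (the order kept for every set of values given here) it stood at 1593, 1879.8, 2001, 1845 and 1794 RPM in CD-F0 and at 2354, 1404, 1772, 1181 and 1234 RPM in HFD-F0. Of the HFD-F0 samples 3 lay under the lowest CD-F0 sample and 1 above the highest, so the groups overlapped, with means of 1822 ± 149 and 1589 ± 486 RPM (SD, n = 5 each). The log2 fold change of mir-93 was -0.32 (SE 0.15, 95% interval -0.64 to 0.01) with an adjusted p of 0.470 by edgeR with Benjamini-Hochberg adjustment (unadjusted 0.0544).

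mir-20a, the member of this seed next in level, had 108, 108, 113, 98.9 and 143 RPM in CD-F0 and 144, 93.5, 97.8, 84.3 and 111 RPM in HFD-F0. Of the HFD-F0 samples 3 lay under the lowest CD-F0 sample and 1 above the highest, and the log2 fold change was -0.22 (SE 0.16, edgeR adjusted p = 0.675). mir-17, whose name the cluster bears, had 13.02, 17.2, 11.97, 7.76 and 14.1 RPM in CD-F0 and 21.8, 10.2, 9.86, 12.4 and 13.1 RPM in HFD-F0. A single HFD-F0 sample, replicate 1, lay above all others, and the log2 fold change was -0.05 (SE 0.23, edgeR adjusted p = 0.991). mir-106b had 15.4, 25.6, 10.8, 9.05 and 17.0 RPM against 22.6, 12.1, 12.5, 13.6 and 15.7 RPM, and all HFD-F0 samples fell inside the CD-F0 range (log2 fold change -0.13, SE 0.26, edgeR adjusted p = 0.914). With as few as 244 reads in a library, counting error alone gave mir-17 an interval of 6.84 to 8.79 RPM in its lowest sample (95%, Wilson), whereas for mir-93 that interval spanned about 1.01% on either side.

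mir-18a, the only member with its seed, had the largest fitted difference. It stood at 107, 163, 131, 119 and 129.6 RPM in CD-F0 and at 166, 93.9, 102, 75.4 and 95.7 RPM in HFD-F0. Of the HFD-F0 samples 4 lay under the lowest CD-F0 sample, and replicate 1 lay above the highest. Means were 130.1 ± 21.0 and 107 ± 34.9 RPM (SD, n = 5 each), and the log2 fold change was -0.41 (SE 0.18, 95% interval -0.79 to -0.02, 0.755-fold), with an adjusted p of 0.430 by edgeR with Benjamini-Hochberg adjustment (unadjusted 0.0400). On RPM without further normalization the exact permutation test over the 252 assignments of samples gave p = 0.246 (two-sided).

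The miR-19 hairpins differed by less than the spread of their samples. mir-19b-1 had 88.5, 142, 118, 112 and 115 RPM in CD-F0 and 148, 99.0, 129, 86.8 and 95.7 RPM in HFD-F0. Each diet held samples near the bottom and near the top of the common range. The log2 fold change was -0.15 (SE 0.16, edgeR adjusted p = 0.815), and its 95% interval reached from 0.708-fold to 1.15-fold. mir-19a, which differs from miR-19b at a single base, moved with it from sample to sample, with 61.7, 105, 83.9, 79.4 and 83.5 RPM against 109.9, 69.9, 93.2, 61.2 and 69.2 RPM. The alignment allowed 1 mismatch, and whether reads of miR-19a and miR-19b were in part counted for each other was not tested. The log2 fold change of mir-19a was -0.15 (SE 0.17, edgeR adjusted p = 0.873). The sum of mir-19b-1 and mir-19b-2, which does not depend on how identical reads were divided, was 232 ± 38.5 RPM in CD-F0 and 225 ± 51.6 RPM in HFD-F0 (SD, n = 5 each). Its fold lay between 0.715 and 1.13 (95% interval, edgeR adjusted p = 0.802).

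mir-92a-1 was the only member with a fitted difference above 0. It had 766, 615, 692, 596 and 631 RPM in CD-F0 and 801, 713, 825, 686 and 875 RPM in HFD-F0. Of the HFD-F0 samples 3 lay above the highest CD-F0 sample and none under the lowest. Means were 660.1 ± 69.4 and 779.8 ± 78.8 RPM (SD, n = 5 each), a ratio of 1.18, with p = 0.0397 in the exact permutation test on RPM (two-sided, not adjusted), while the same test gave p from 0.246 to 0.960 for the other 8 members. After TMM normalization the log2 fold change was 0.14 (SE 0.14, 95% interval -0.17 to 0.45) with an edgeR adjusted p of 0.803. The sum of mir-92a-1 and mir-92a-2 had the same log2 fold change, 0.14 (SE 0.14, edgeR adjusted p = 0.802). mir-25, which shares this seed, differed in the other direction. It had 1139.8, 1044, 1225, 1100.2 and 1090.1 RPM in CD-F0 and 1284, 782, 1133, 895 and 962 RPM in HFD-F0. Of the HFD-F0 samples 3 lay under the lowest CD-F0 sample and 1 above the highest, and the log2 fold change was -0.26 (SE 0.13, 95% interval -0.54 to 0.02, edgeR adjusted p = 0.477, unadjusted 0.0662).

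Summed over all its hairpins, miR-106b~25 reached 2958 ± 177 RPM in CD-F0 and 2615 ± 670.4 RPM in HFD-F0, and miR-17~92 reached 1115 ± 58.6 and 1199 ± 155 RPM (SD, n = 5 each). In CPM, counts per 1000000 reads after TMM normalization, the sum of miR-106b~25 was 3264 ± 129.9 against 2661 ± 416, a ratio of 0.815, and that of miR-17~92 was 1232 ± 79.5 against 1233 ± 108, a ratio of 1.0006. These sums are given without a test. Together the 9 members made up 1.70% to 2.58% of the miRNA reads of a library. On the same CPM scale the epididymal epithelium list had a ratio of 1.15 and the germ cell list a ratio of 0.830. All 6 epithelial hairpins had a log2 fold change above 0, as did 399 of all 814 features, with a median over the list of 0.29. Within the germ cell list mir-449a was at 0.726-fold in the edgeR fit, mir-34b and mir-34c were at 0.986-fold and 0.996-fold, mir-449b had a log2 fold change of -0.26 and mir-449c one of 0.41, with a median over the list of -0.02. None of the 5 germ cell and 0 of the 6 epithelial hairpins reached an unadjusted p of 0.05 in the edgeR test. Of the smooth muscle hairpins 1 of 6 (mir-145a, edgeR adjusted p = 0.293) passed the thresholds upwards, as did 17 of all 814 features. The median log2 fold change of that list was -0.02, with 4 of 6 under 0. Those under 0 were mir-1a-1 and mir-1a-2 (-0.13 each) and mir-133a-1 and mir-133a-2 (-0.02 each), pairs with nearly equal values. The others, mir-143 and mir-145a, were at 0.02 and 1.09. Of the blood and immune cell hairpins 1 of 6 (mir-223) was higher at an unadjusted p of 0.00520 (edgeR adjusted p = 0.225). Over all features 6.14% were higher at an unadjusted p of at most 0.05. In the blood and immune cell list 1 of 6 was under 0 (mir-451a, -0.29). The part of these lists in the member values was not tested.

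HFD-F0 replicate 1, the library with the highest miRNA share and the highest TMM factor (1.211, against 0.904 to 1.020 in the others), held the highest HFD-F0 RPM of 8 of 9 members. Of those 8, mir-19b-1 and mir-25 were higher in HFD-F0 replicate 3 on the CPM scale (133 against 130 CPM and 1167 against 1124 CPM). Without HFD-F0 replicate 1, the median log2 fold change of the members was -0.27 (all features -0.05), 0 of 9 members passed the thresholds and 3 of 9 had an unadjusted p of at most 0.05, as did 122 of the 826 features then tested. The log2 fold changes were then -0.58 for mir-18a, -0.46 for mir-93 and -0.33 for mir-25, with edgeR adjusted p-values of 0.183, 0.183 and 0.325.

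The share of each hairpin in the reads of its own cluster does not depend on library size or on other RNA classes. In miR-17~92 it does depend on how the reads of miR-19b and miR-92a were divided with the X-linked hairpins. mir-18a made up 9.34%, 14.2%, 11.4%, 11.8% and 11.6% of miR-17~92 in CD-F0 and 11.96%, 8.70%, 8.10%, 7.50% and 7.60% in HFD-F0. The means were 11.7% ± 1.73 and 8.77% ± 1.85 (SD, n = 5 each), 2.90 percentage points apart, and 4 of 5 HFD-F0 samples lay under the lowest CD-F0 sample. The exact permutation test gave p = 0.0397 (two-sided), 1 of 9 shares computed and not adjusted, with 0.00794 the smallest p that 5 against 5 samples allow. Leaving out HFD-F0 replicate 1 gave p = 0.0159, while leaving out any of the other 9 samples gave exact p from 0.0635 to 0.0794. The difference (HFD-F0 minus CD-F0) without 1 of those 9 was -3.48 to -2.27 percentage points, against -2.90 with all samples, and 4 against 5 samples have 126 assignments.

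mir-20a took 10.2% ± 1.45 of miR-17~92 in CD-F0 and 8.80% ± 0.955 in HFD-F0 (SD, n = 5 each, exact permutation p = 0.0714). mir-92a-1 took 67.0%, 53.5%, 60.1%, 58.8% and 56.5% in CD-F0 and 57.6%, 66.1%, 65.7%, 68.2% and 69.4% in HFD-F0. Its mean was 6.20 percentage points higher in HFD-F0 (exact permutation p = 0.111), with CD-F0 replicate 1 among the high samples and HFD-F0 replicate 1 among the low ones. The other shares of miR-17~92, those of mir-17, mir-19a and mir-19b-1, gave exact permutation p from 0.270 to 0.873. In miR-106b~25 the shares differed between diets by less than their spread. mir-93 held 61.6% ± 2.16 of the reads in CD-F0 and 60.2% ± 3.99 in HFD-F0 (exact permutation p = 0.532), mir-25 held 37.9% ± 2.21 and 39.2% ± 3.93 (p = 0.556), and mir-106b held 0.531% ± 0.227 and 0.592% ± 0.108 (p = 0.619; SD, n = 5 each). All groups of shares overlapped, and the shares of a cluster sum to 100%, so they are not independent of each other.

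**Figure D4:**
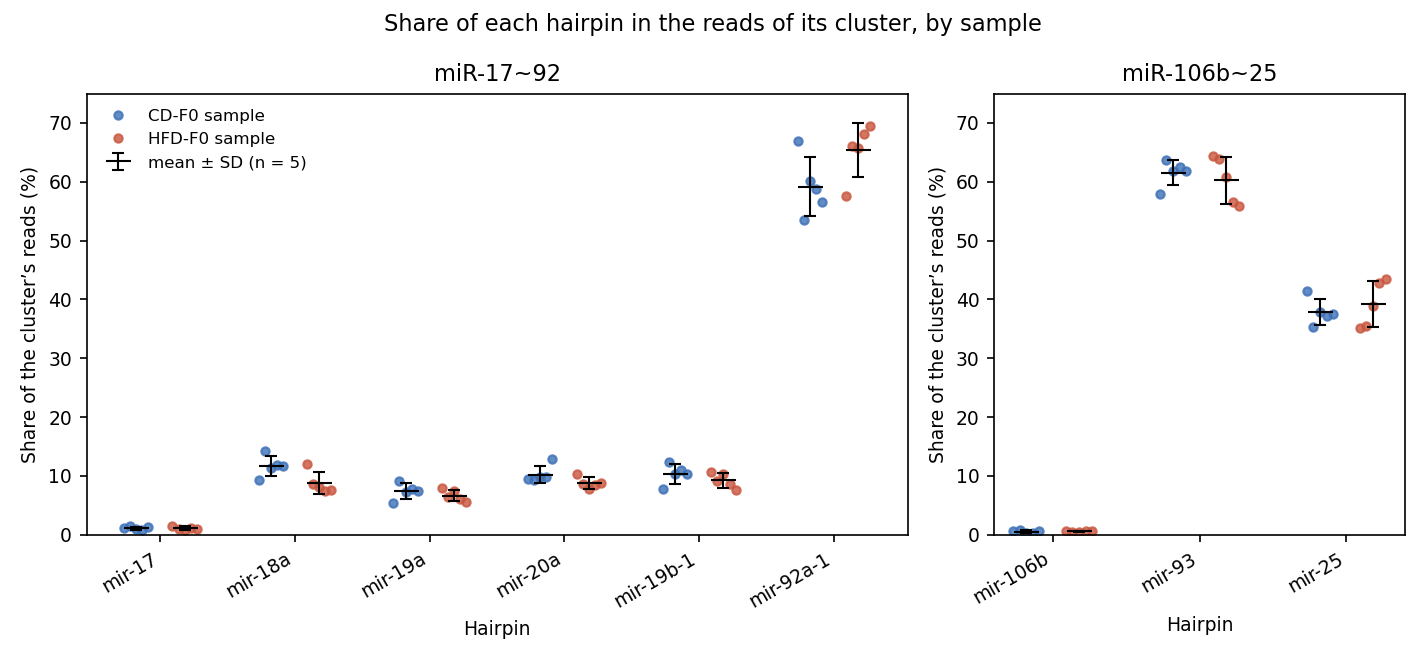
Share of each hairpin in the reads of its cluster (vertical axis, percent) in each CD-F0 and HFD-F0 sample for miR-17~92 (left) and miR-106b~25 (right). Points are samples, and bars give the mean and SD of 5 samples; mir-18a averages 11.7% in CD-F0 and 8.77% in HFD-F0, and mir-92a-1 averages 59.2% and 65.4%.

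The X-linked cluster miR-106a-363 held the same families of hairpins at other levels. By the same edgeR test 0 of its 6 hairpins passed the thresholds in either direction, where 3.69% of all features did, and 2 of 6 were lower at an unadjusted p of at most 0.05, against 4.05% of all features. mir-18b, the counterpart of mir-18a, had 3.30, 4.73, 2.45, 2.67 and 2.01 RPM in CD-F0 and 3.59, 0.921, 2.04, 0.751 and 1.84 RPM in HFD-F0. Its log2 fold change was -0.87 (SE 0.38, edgeR adjusted p = 0.430), with 3 HFD-F0 samples under the lowest CD-F0 sample. mir-363, whose mature strand has the miR-92a seed, had 2.14, 2.31, 1.23, 1.65 and 2.08 RPM against 1.56, 1.34, 0.590, 1.0015 and 0.744 RPM. Its log2 fold change was -0.96 (SE 0.32, 95% interval -1.65 to -0.26, edgeR adjusted p = 0.250), just short of the fold threshold, from 19 to 73 reads per library. mir-106a (2.73 ± 0.928 and 2.90 ± 1.23 RPM) and mir-20b (1.84 ± 0.336 and 1.55 ± 0.740 RPM; SD, n = 5 each) were as low, with log2 fold changes of -0.04 and -0.36. mir-19b-2 had nearly the level of mir-19b-1, at 117 ± 19.5 and 113 ± 25.7 RPM. mir-92a-2 lay under mir-92a-1, at 496 ± 56.0 and 590.0 ± 62.3 RPM. Their log2 fold changes were -0.16 and 0.15.

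Among 284 other miRNA hairpins with a mean of at least 10 CPM, those whose log2 CPM followed the summed log2 CPM of miR-106b~25 most closely over the 10 samples were mir-192 (Pearson r = 0.89, Spearman rho = 0.92), mir-470 (0.87 and 0.94) and mir-499 (0.85 and 0.85). Without the 2 samples farthest from the median of the cluster, r was 0.68, 0.65 and 0.70. For miR-17~92 they were mir-375 (r = 0.74, rho = 0.64), mir-34b (0.70 and 0.58) and mir-871 (0.65 and 0.48). Without the 2 farthest samples r was 0.63, 0.03 and 0.68, so that the likeness of mir-34b rested on those samples. These correlations are the highest of 284, share libraries and depth on both axes, and are given as a description.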

How the data were processed

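Sperm small RNA of 10 samples was sequenced, 5 per diet. Per the study's methods, RNA of 18 to 30 nt was selected, and reads were aligned with Bowtie by SPORTS with 1 mismatch allowed (mm10 in the submitters' processing notes). The authors deposited per-sample tables of estimated counts of reads per RNA feature, genome-matched and unmatched, in which reads that fit several features are divided. UMI handling is not given in the sources used here.

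Genome-matched and unmatched reads were added (members had matched reads only), with absent features at 0, and divided by clean reads for RPM. The estimated counts, rounded to whole numbers, of 1470 features were fitted with edgeR 4.0.16 in R 4.3.3 (filterByExpr, TMM, quasi-likelihood F test, Benjamini-Hochberg over 814 features). Shares and orders were tested by exact permutation (scipy 1.17.1), with log2 of RPM plus 0.01 for ratios. DESeq2 1.42.0 and the other alternatives are given in the closing section. The code was tested on simulated data, where 186 of 187 features changed by 2 on the log2 scale were recovered. Recovery of smaller differences was not tested. No pair of libraries agreed within counting noise (smallest chi-square per degree of freedom 508.1). Intervals from counts cover counting error only.

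Members, marker lists and comparisons were chosen with earlier results of these data known. The genes named are the 9 members, the 6 hairpins of miR-106a-363, the markers quoted, and the 3 hairpins most correlated with each cluster.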

Additional observations from a re-analysis of the deposited data

Results flagged for a closer look

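In 5 of 48 groups of 5 samples examined (RPM of 15 hairpins and 9 shares, by diet) 1 sample stood apart by Dixon's test, which chance alone does in about 1 of 20 groups. HFD-F0 replicate 1 had 21.8 RPM of mir-17 (next highest 13.1 RPM), 166 RPM of mir-18a (next 102 RPM) and 5.05 RPM of mir-106a (next 2.79 RPM). In the same sample mir-18a made up 11.96% of miR-17~92 (next 8.70%). CD-F0 replicate 5 had the other, with mir-20a at 12.8% of miR-17~92 (next 9.85%).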

How the results depend on the processing

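The number of members past the thresholds was 0 in all 21 fits, and none had an adjusted p under 0.05 in any (lowest 0.183). mir-18a, mir-19a, mir-20a, mir-19b-1, mir-93 and mir-25 stayed under 0 and mir-92a-1 above 0 under every alternative run, but their size moved. mir-17 turned from -0.05 to 0.07 with clean reads as library size or on RPM by exact permutation, and to 0.01 among miRNA hairpins alone. Leaving out 1 sample gave log2 fold changes of -0.24 to 0.04 for mir-17, -0.27 to 0.06 for mir-106b (0.06 without CD-F0 replicate 2), -0.58 to -0.31 for mir-18a, -0.24 to -0.07 for mir-19a, -0.32 to -0.13 for mir-20a, -0.24 to -0.09 for mir-19b-1, 0.06 to 0.24 for mir-92a-1, -0.46 to -0.24 for mir-93 and -0.33 to -0.20 for mir-25. Over all features 30 passed the thresholds; 93 did with no filter on low counts, 19 with at least 10 reads in every sample, 12 when miRNA hairpins were fitted alone (3 higher and 9 lower, against 3 and 12 for miRNA hairpins in the reported fit), and 22 to 50 with 1 sample left out (50 without CD-F0 replicate 5). Adjusted calls over all features were 1 in the reported test, 13 by DESeq2, 12 by edgeR's exact test and 5 with clean reads as library size.

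Differences in share with 1 sample left out ran from -0.140 to 0.0617 percentage points for mir-17, -3.70 to -2.27 for mir-18a, -1.83 to -0.796 for mir-20a (exact permutation p = 0.0159 without HFD-F0 replicate 1) and 4.78 to 8.16 for mir-92a-1 (exact permutation p = 0.0476 without CD-F0 replicate 1 or HFD-F0 replicate 1). With the reads of identical mature miRNAs added, the mean log2 ratio of mir-18a to miR-19b was -0.97 in place of 0.04 and that of miR-19b to mir-20a was 1.05 in place of 0.04, by the construction of the sum. With those reads added, the share difference of mir-18a was -2.01 percentage points in place of -2.90 (exact permutation p = 0.0397 for each). That of mir-92a-1 was 5.43 in place of 6.20 (exact permutation p = 0.111 for each). The cause of the other changes was not tested.

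The reported fit did not pair samples by replicate number. To check for pairing, the mean of its diet group was subtracted from the log2 CPM of every feature. These deviations, not the levels themselves, had correlations of 0.34, -0.09, 0.25, -0.19 and -0.14 between same-numbered samples. For replicates 1 and 3 the same-numbered sample was the best match in both directions, and for replicates 2, 4 and 5 in neither. With a replicate block 25 features passed the thresholds, 0 members passed, and 0 members had an unadjusted p of at most 0.05, against 82 of 814 features (mir-18a -0.42, unadjusted p = 0.0660 by edgeR). Depth limits mir-17 and mir-106b most, with 244 and 285 reads in their lowest libraries.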
